A study of Mus musculus with 3 samples.

Results

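The extracellular BMP antagonists other than MGP were taken as 9 genes, *Grem1*, *Nog*, *Chrd*, *Chrdl1*, *Bmper*, *Twsg1*, *Nbl1*, *Fst* and *Fstl1*. Members were the rows of the count tables that carry these symbols, and each symbol matched 1 of 32285 genes. The list was written by name and not computed from measured levels, though earlier results of these data were known. The stromal vascular fraction (SVF) of inguinal white adipose tissue, the cells left after adipocytes are spun off, had been sequenced at single-cell level in 1 library per genotype after depletion of CD45+ immune cells. The 3 libraries were wild-type, *Mgp*-KO and Pd-KO, all from 4-week-old mice with both sexes pooled, and the labels put them in 1 batch. The *Mgp*-KO mice lacked *Mgp* in the whole body (strain B6.129S7-Mgptm1Kry/KbosJ). The Pd-KO mice were *Mgp* flox/flox animals crossed with *Pdgfra* cre mice (C57BL/6-Tg(Pdgfra-cre)1Clc/J), so that recombination is limited to cells with a history of the *Pdgfra* promoter, and floxed mice without Cre were not analysed here. The cells of several animals were pooled in each library. The libraries are therefore not replicates, no p-value was computed between them, and each interval is a 95% interval for counting error only.

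Bone morphogenetic proteins (BMPs) are secreted ligands that signal through serine/threonine kinase receptors to SMAD1, SMAD5 and SMAD9, and their reach in a tissue is set by secreted proteins that bind them. Matrix Gla protein (MGP) is such a binding protein, and in adipose tissue BMP2 and BMP4 commit progenitors to the adipocyte fate while BMP7 is known for its part in brown and beige fat. The comparison asked in which cells each of the other antagonists was transcribed, and whether any of them stood higher where *Mgp* was lost.

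GGCGCC and GGAGCC are short motifs that SMAD1 and SMAD5 are known to bind. They were searched on both strands of the members' promoters, and the bases are shown for *Grem1* and *Bmper*, the members called lower and higher in the results. GGCGCC reads the same on either strand and shares no position with GGAGCC. Of the 9 members, 6 had an entry in the RefSeq promoter table (GRCm38.p6), from 250 bases before to 50 bases after the start. Across 32851 promoters of that length, 11.9% held GGCGCC, 30.8% held GGAGCC or its other strand GGCTCC, and 37.1% held either. All 6 members held at least 1 of them, of which *Grem1*, *Chrd* and *Nbl1* held GGCGCC. Both motifs are rich in G and C, and G and C made up 66.7% to 78.3% of the bases of these 6 promoters. The shares over all promoters were not matched for that content, so no excess of motifs is read from the 6. The bases upstream of the start of *Grem1* (chr2:113758649-113758898, minus strand) and of *Bmper* (chr9:23222826-23223075, plus strand) are printed with these motifs in capitals.
Grem1: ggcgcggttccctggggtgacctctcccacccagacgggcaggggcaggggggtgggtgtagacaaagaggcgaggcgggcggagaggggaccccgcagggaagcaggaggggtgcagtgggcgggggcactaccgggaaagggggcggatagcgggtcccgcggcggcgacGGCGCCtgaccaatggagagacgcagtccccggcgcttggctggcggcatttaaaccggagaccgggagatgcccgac
Bmper: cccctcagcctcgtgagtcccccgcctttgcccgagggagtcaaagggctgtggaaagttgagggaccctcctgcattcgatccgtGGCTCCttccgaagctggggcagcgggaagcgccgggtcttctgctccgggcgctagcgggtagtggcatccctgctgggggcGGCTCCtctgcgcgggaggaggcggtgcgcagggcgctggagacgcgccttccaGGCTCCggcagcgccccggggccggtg
A match is one of letters and no measured site. *Grem1* held 1 match in these bases and *Bmper* held 3.

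The authors deposited unfiltered counts of unique molecular identifiers (UMIs, which count molecules rather than reads) per gene and barcode. The libraries held 184102026, 93212243 and 83942865 UMIs (wild-type, *Mgp*-KO and Pd-KO, in this order throughout). Barcodes with at least 2000 UMIs and at most 10% mitochondrial UMIs were kept as cells, which left 10511, 12575 and 8819 cells with a median of 12802, 6445 and 8269 UMIs, and between 35 and 40 barcodes were shared by any pair of libraries. Cells were assigned to types and states by counting detected markers after each cell had been thinned to 2000 UMIs. Adipose progenitor cells (APCs, with *Pdgfra* and *Dcn*) made up 7533, 10860 and 6808 cells, mural cells (smooth muscle and pericytes, with *Acta2* and *Rgs5*) 876, 185 and 468, and endothelial cells 657, 222 and 680. Within APCs, DPP4+ interstitial progenitor cells numbered 1688, 3961 and 3441, ICAM1+ preadipocytes 2529, 1443 and 740, and F3+ adipogenesis regulatory cells (Aregs) 488, 497 and 324. The level of a gene is its share of the summed UMIs of the gate, per 1000000 (CPM), and levels of different genes were not ranked. Leukocytes, against which the cells were depleted, held 14, 7 and 30 cells. Cells were called female by *Xist* and male by Y-linked genes. Of APCs, 34.2%, 58.9% and 31.9% were called female and 37.8%, 15.7% and 41.1% male, so the sex mix of *Mgp*-KO differed from the other libraries.

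*Mgp* was lower in APCs of both knockouts. Its level in APCs was 481 CPM in wild-type, 1.93 CPM in *Mgp*-KO and 1.13 CPM in Pd-KO cells. In wild-type Aregs, where it was highest among the APC states, it reached 4465 CPM. In mural cells it was 408 CPM in wild-type, was not detected in *Mgp*-KO (0 UMIs, with an upper limit of 4.96 CPM), and was 442 CPM in Pd-KO. Few Pd-KO mural cells carried that level, since an *Mgp* UMI was found in 11.1% of them (52 of 468) against 35.8% in wild-type, and 758 of 918 UMIs lay in cells with a UMI of the pericyte gene *Kcnj8*. These cells held 887 CPM, those without a *Kcnj8* UMI 131 CPM and those with a UMI of the smooth muscle gene *Myh11* 31.7 CPM, where wild-type held 628, 391 and 268 CPM. *Mgp* was also lower outside APCs, at 27.9, 0.19 and 5.08 CPM in luminal epithelial cells. Endothelial cells held 685 CPM in wild-type and 0 UMIs in *Mgp*-KO, and the Pd-KO log2 ratio there was -3.77 (-4.02 to -3.54). Free RNA held 359 CPM of *Mgp* in wild-type, 1.27 CPM in *Mgp*-KO and 6.28 CPM in Pd-KO. The wild-type value is no floor for a gate, since wild-type early adipocytes held 16.0 CPM. How much free RNA added to each wild-type level was not tested. Of 157 *Mgp* UMIs in the *Mgp*-KO library, 97 lay in 1 cell.

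The genomic span of a gene moved with the comparison to wild-type. The headers name Cell Ranger 4 for the wild-type and 7.1.0 for both knockout libraries, and it was not stated whether intronic reads were counted. Among 14883 genes with at least 100 UMIs in APCs over the libraries, the median log2 ratio to wild-type was 0.16 in *Mgp*-KO and 0.21 in Pd-KO, but 1.35 and 1.57 for the 2107 genes longer than 100 kb. Between the knockouts, which share a software version, the median for these genes was -0.24. Software and genotype cannot be told apart in either comparison to wild-type, so each ratio is given beside those of the 200 genes nearest in span, and *Mgp*-KO is also set against Pd-KO.

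In APCs, all 9 members passed the minimum of 100 UMIs. With a log2 ratio of at least 1 called higher and at most -1 called lower, 1 of 9 was higher in *Mgp*-KO (*Bmper*), against 19.3% of all genes tested, and none was lower, against 3.74%. In Pd-KO, 1 was higher (*Bmper*, against 22.4% of genes) and 1 lower (*Grem1*, against 6.24%). The *Grem1* call is a description, since the gene passed the minimum through 76 wild-type UMIs of 110. After the running median of genes of like span had been taken off, none of the members was called higher in *Mgp*-KO, where 10.5% of genes were, and 2 were in Pd-KO (*Chrd* and *Nbl1*, at 1.02 and 1.03), where 11.9% of genes were. *Grem1* remained the only member called lower in Pd-KO by that measure, against 8.56% of genes. Between the knockouts no member was called lower, against 3.08% of genes. *Grem1* passed the fold upward in *Mgp*-KO, where 4.94% of genes did, but from 31 and 3 UMIs, so nothing is read from that call. The median log2 ratio of the 9 members was 0.15 in *Mgp*-KO and 0.83 in Pd-KO. Both comparisons to wild-type use the same wild-type library, so their likeness is no independent evidence.

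**Figure D1:**
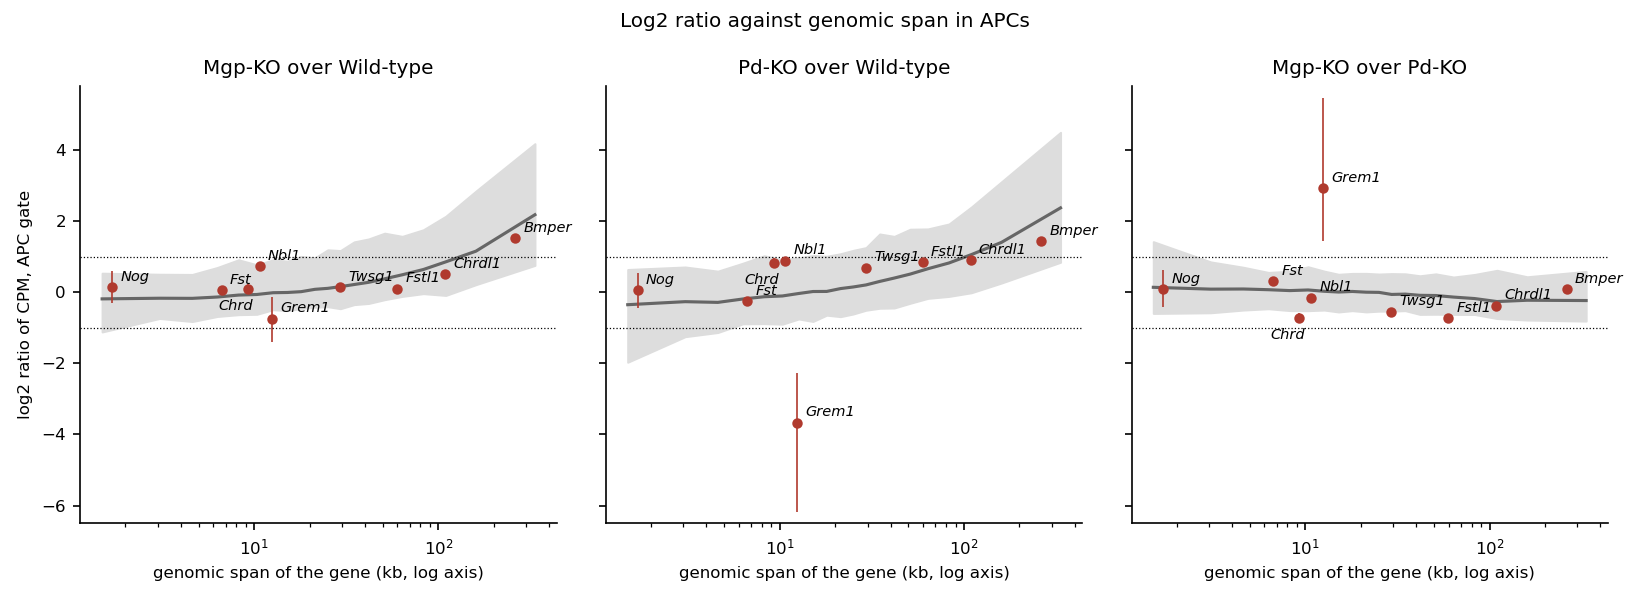
Log2 ratio of CPM in APCs (vertical axis) against genomic span in kb (horizontal log axis) for the 9 antagonists, with 95% counting intervals. The grey line is the median of all tested genes in 20 bins of span, the band runs from the 10th to the 90th percentile, and dotted lines mark log2 ratios of 1 and -1. *Bmper* lies on the rising part of the line in both comparisons to wild-type, and *Grem1* lies below the band in Pd-KO.

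*Bmper*, the crossveinless-2 homolog that binds BMP4 and can either restrain or favour its signaling, was the only member called higher in APCs. It lies on chromosome 9 (GRCm38, chr9:23223076-23485200, plus strand). Its level was 67.0 CPM in wild-type, 193 CPM in *Mgp*-KO and 181 CPM in Pd-KO APCs. The log2 ratio was 1.53 (1.49 to 1.57) in *Mgp*-KO and 1.44 (1.39 to 1.48) in Pd-KO. Both knockouts stood well above wild-type and differed from each other by only 0.09 (0.06 to 0.13). *Bmper* spans 262 kb, of which exons cover 1.84%, and the median ratio of the 200 genes nearest in span was 1.82 and 1.95. Its ratio thus lay at percentile 37.0 and 29.5 of genes of its length, and was -0.29 and -0.52 relative to them.

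*Bmper* was higher in preadipocytes than in interstitial progenitors and Aregs of every library. It reached 104, 442 and 555 CPM in preadipocytes and 15.9, 60.6 and 48.9 CPM in interstitial progenitor cells. Within a library, where software is shared, preadipocytes exceeded interstitial progenitors by a log2 ratio of 2.71 (2.55 to 2.86), 2.87 (2.79 to 2.95) and 3.50 (3.42 to 3.59). In Aregs the levels were 13.5, 72.1 and 87.2 CPM, and Aregs differed from interstitial progenitors by a log2 ratio of -0.22, 0.25 and 0.84. Cells marked by Col18a1, *Sdc1* and *Cdh11* (called Col18a1 stroma) held 81.4, 274 and 527 CPM, and early adipocytes 53.7, 279 and 458 CPM. Preadipocytes led in each library, but Col18a1 stroma also exceeded interstitial progenitors, by a log2 ratio of 2.36, 2.18 and 3.43. Every one of these gates stood higher in both knockouts than in wild-type. In early adipocytes, *Bmper* was still called higher in both knockouts after the span median had been taken off. That gate held 21 cells in each knockout, and 3 members were tested there. As counted, the 90th percentile of all genes tested in that gate was 1.01 in *Mgp*-KO and 1.18 in Pd-KO. In no APC state was *Bmper* called with the span median taken off. In preadipocytes alone the log2 ratio was 2.09 (2.03 to 2.15) in *Mgp*-KO, where 16.5% of genes were called higher, and 2.42 (2.36 to 2.49) in Pd-KO, where 19% were. As counted, *Bmper* was the only member called there in either. With the span median taken off it was called in neither, and *Nbl1* was called higher in *Mgp*-KO. Beside genes of like span the *Bmper* ratios lay at percentile 61.0 and 67.0. Free RNA, taken from barcodes with 10 to 100 UMIs, moved in the same direction, with 19.1, 166 and 306 CPM of *Bmper*, while the mural level was 4.46, 8.07 and 8.66 CPM. The levels in interstitial progenitors and Aregs lay below free RNA in each library. How much free RNA added to them was not tested.

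The state mix of APCs also differed between libraries, with preadipocytes at 33.6%, 13.3% and 10.9% of APCs and interstitial progenitors at 22.4%, 36.5% and 50.5%. With the states weighted as in wild-type, the log2 ratio of *Bmper* was 1.99 in *Mgp*-KO and 2.25 in Pd-KO, which was farther from 0 than as counted. The same weighting brought *Nbl1* and *Chrdl1* in both knockouts and *Fstl1* in Pd-KO toward 0, as given beside each.

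**Figure D2:**
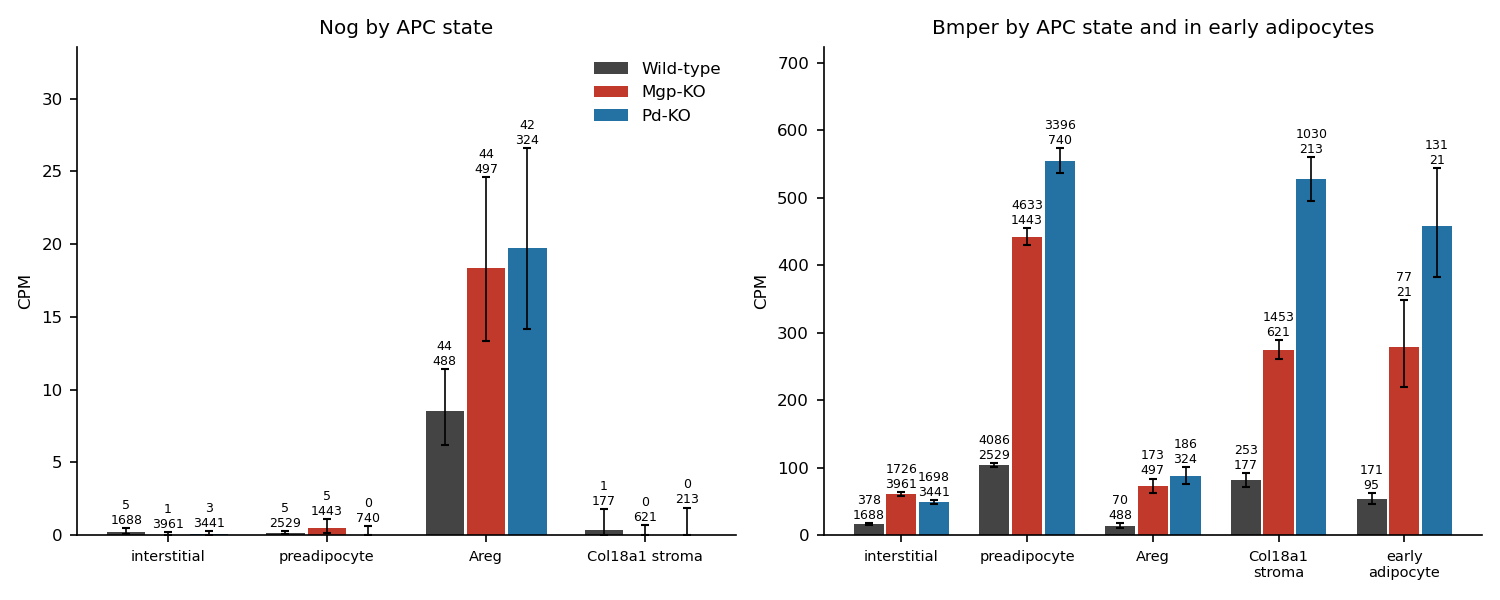
CPM (vertical axis, from 0) of *Nog* in 4 APC states and of *Bmper* in these states and early adipocytes, by library. Bars carry 95% Poisson intervals, and the numbers above them are UMIs of the gene and cells. Among these states *Nog* is highest in Aregs of each library, and *Bmper* leads in preadipocytes, Col18a1 stroma and early adipocytes in each knockout library.

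*Nog*, whose product noggin binds BMP2, BMP4 and BMP7 and blocks receptor contact, was rare and, among APC states, highest in Aregs. Over all cells it had 124, 86 and 65 UMIs, of which 35.5%, 51.2% and 64.6% fell in Aregs. The Areg level was 8.49 CPM (6.17 to 11.4) in wild-type, 18.3 CPM (13.3 to 24.6) in *Mgp*-KO and 19.7 CPM (14.2 to 26.6) in Pd-KO, from 44, 44 and 42 UMIs. Interstitial progenitor cells held between 0.04 and 0.21 CPM, and *Nog* was detected at 0.87 and 0.30 CPM in the free RNA of wild-type and Pd-KO and not in that of *Mgp*-KO. The Areg gate therefore stood above free RNA in each library, and the wild-type interval did not overlap those of the knockouts. The log2 ratio was 1.11 (0.47 to 1.75) in *Mgp*-KO and 1.21 (0.57 to 1.86) in Pd-KO. Members called higher in Aregs were *Nog* and *Bmper* in both, 2 of 8 tested, beside 12.3% and 17.3% of all genes. *Nog* (GRCm38, chr11:89300638-89302332, minus strand) spans 1.70 kb, all of it exonic, and its ratios lay at percentile 98.0 and 99.5 of the 200 genes nearest in span.

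The *Nog* result was thin. In cells thinned to 2000 UMIs, 1.64% (0.71 to 3.20), 3.82% (2.32 to 5.91) and 3.40% (1.71 to 5.99) of Aregs held a *Nog* UMI, and these exact binomial (Clopper-Pearson) intervals overlap. In endothelial cells the shares were 0.15%, 0.45% and 0.15%, at a median of 6485, 3177 and 3880 UMIs per cell against 10420, 4584 and 6316 in Aregs. Cells called female by *Xist* held 6.41, 20.0 and 17.5 CPM of *Nog* and cells called male by Y-linked genes 8.54, 13.4 and 15.3 CPM. These levels rest on parts of the 44, 44 and 42 Areg UMIs, and cells called male made up 13.7% of *Mgp*-KO Aregs. The sexes are therefore too thinly counted to be read as 2 separate results. When cells were gated on all their UMIs instead of 2000, however, the log2 ratios were 0.11 and -0.06. Over all APCs, *Nog* stood at 0.87, 0.96 and 0.90 CPM. In the wild-type library, neurons (88 cells, none gated in the knockouts) held 18.5 CPM of *Nog* from 7 UMIs. These lay in 2 cells, with 6 of them in 1 cell.

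*Chrd* and *Chrdl1* encode chordin and chordin-like 1, which bind BMP4 and related ligands through cysteine-rich repeats. *Chrd* was low, at 8.33, 8.89 and 14.8 CPM in APCs, and led in interstitial progenitor cells (16.9, 13.7 and 19.0 CPM) and Aregs (16.4, 10.8 and 15.0 CPM) over preadipocytes (3.14, 2.67 and 4.08 CPM). Free RNA held 5.22, 17.7 and 18.8 CPM of *Chrd*, from 6, 14 and 63 UMIs. That was above each of these states in *Mgp*-KO and close to the interstitial level in Pd-KO. The *Chrd* ratio in APCs was 0.10 (-0.05 to 0.24) in *Mgp*-KO and 0.83 (0.70 to 0.96) in Pd-KO. Within interstitial progenitors it was -0.30 (-0.50 to -0.09) and 0.17 (-0.01 to 0.35). Among APCs with markers of several states the Pd-KO ratio was 1.19 (0.74 to 1.65), and among those of no state 0.48 (0.14 to 0.80).

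*Chrdl1* (GRCm38, chrX:143285674-143394262, minus strand) peaked in Aregs. There it stood at 337, 353 and 439 CPM, in interstitial progenitors at 155, 173 and 177 CPM, and in preadipocytes at 26.6, 37.4 and 51.3 CPM. This order was the same in all 3 libraries, and none of the intervals of neighbouring states overlapped within a library. Over a span of 109 kb, its log2 ratio in APCs was 0.52 (0.48 to 0.56) in *Mgp*-KO and 0.90 (0.86 to 0.94) in Pd-KO, and -0.41 and -0.19 relative to genes of like span. In Aregs, where both *Mgp* and *Chrdl1* were highest in wild-type, the ratio was 0.07 (-0.05 to 0.19) and 0.38 (0.27 to 0.50). With wild-type state weights, the APC ratios were 0.26 and 0.56. In mural cells *Chrdl1* was lower in both knockouts, at 26.5, 10.8 and 8.18 CPM, with log2 ratios of -1.22 (-2.53 to -0.29) and -1.66 (-2.51 to -0.97) from 8 and 17 UMIs. Free RNA held 55.7, 110 and 125 CPM of *Chrdl1*, above the mural level in each library, and endothelial cells held 7.98, 1.23 and 7.06 CPM.

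*Twsg1* and *Nbl1* encode twisted gastrulation, which forms a complex with chordin and BMPs, and DAN, a founding member of the family to which gremlin belongs. *Twsg1* was spread widely. It held 67.1, 74.3 and 109 CPM in APCs, 56.9, 61.8 and 64.5 CPM in mural cells, and 23.9, 24.6 and 19.9 CPM in endothelial cells. The APC ratio was 0.15 (0.10 to 0.20) in *Mgp*-KO and 0.69 (0.65 to 0.74) in Pd-KO, and the mural ratio was 0.13 (-0.36 to 0.57) and 0.18 (-0.12 to 0.47). Both mural intervals of *Twsg1* included 0.

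*Nbl1* was higher in APCs of both knockouts, though by less than the fold that was called. Its level was 125, 207 and 231 CPM, with log2 ratios of 0.74 (0.70 to 0.77) in *Mgp*-KO and 0.89 (0.86 to 0.92) in Pd-KO. With states weighted as in wild-type the ratios were 0.54 and 0.45, so part of the pooled difference moved with the state mix. Interstitial progenitors, in which *Nbl1* was highest, held 231, 256 and 286 CPM, a ratio of 0.15 (0.10 to 0.20) and 0.31 (0.26 to 0.35). In preadipocytes the levels were 60.5, 120 and 89.7 CPM, and the ratio was 0.99 (0.89 to 1.09) in *Mgp*-KO. Free RNA held 87.0, 142 and 133 CPM, above the preadipocyte level in each library. In mural cells *Nbl1* stood at 117, 121 and 197 CPM, a log2 ratio of 0.06 (-0.28 to 0.37) in *Mgp*-KO and 0.76 (0.58 to 0.93) in Pd-KO.

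*Fst* and *Fstl1* encode follistatin, which binds activins tightly and some BMPs more weakly, and a follistatin-like glycoprotein of stromal cells. *Fst* was abundant in preadipocytes, at 435, 600 and 546 CPM, over interstitial progenitors, at 180, 210 and 170 CPM. Preadipocytes exceeded interstitial progenitors by a log2 ratio of 1.28, 1.52 and 1.69. Myoepithelial cells, the contractile cells around mammary ducts in the inguinal pad, held 338, 361 and 142 CPM. In APCs as a whole the levels were 306, 321 and 259 CPM, with ratios of 0.07 (0.04 to 0.09) and -0.24 (-0.27 to -0.22). Within preadipocytes the ratios were 0.46 (0.42 to 0.50) and 0.33 (0.27 to 0.38), and within Aregs 0.50 (0.34 to 0.66) and 0.75 (0.59 to 0.91). *Fst* was thus somewhat higher in both knockouts within these states, and none of these differences reached the fold that was called.

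In mural cells *Fst* was the only member called higher in the comparisons to wild-type. Its gene lies on chromosome 13 (GRCm38, chr13:114452290-114458951, minus strand). *Fst* stood at 59.0 CPM (53.1 to 65.3) in wild-type, 296 CPM (258 to 338) in *Mgp*-KO and 286 CPM (263 to 310) in Pd-KO, from 370, 220 and 594 UMIs. The log2 ratio was 2.33 (2.08 to 2.57) in *Mgp*-KO and 2.28 (2.09 to 2.47) in Pd-KO, at percentile 98.5 and 99.0 of genes of like span. Of 6 members tested there, 1 was called higher in each comparison, against 10.7% and 18.3% of genes, and 2 were lower (*Grem1* and *Chrdl1*), against 2.72% and 3.53%. Those 2 reached the minimum of 100 UMIs only through wild-type, where they were high, so their count is no result about the members. *Mgp*-KO over Pd-KO, which share a software version, gave 0.05 (-0.18 to 0.27) for *Fst*. The median of the 6 members tested in mural cells was -0.11 in *Mgp*-KO and 0.21 in Pd-KO, beside 0.15 and 0.26 over all genes.

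The mural gates differed in their mix. Cells with a *Kcnj8* UMI, a pericyte gene, made up 8.22%, 14.1% and 38.9% of the gate, and cells without a *Myh11* UMI 18.4%, 27.0% and 45.5%. Among cells with a *Kcnj8* UMI, *Fst* was 259, 727 and 447 CPM, and among those without 42.9, 224 and 173 CPM. With a *Myh11* UMI it was 44.7, 119 and 78.3 CPM, and without 118, 737 and 507 CPM. Each of these 4 parts was higher in both knockouts than in wild-type, and the Pd-KO ratio was 0.81 (0.43 to 1.18) with *Myh11* and 0.78 (0.49 to 1.09) with *Kcnj8* against 2.28 over the gate. Neither of these Pd-KO ratios in a part reached the fold that was called. Within each part, *Mgp*-KO exceeded Pd-KO by a log2 ratio of 0.37 to 0.71, with every interval above 0. The 7 markers of myoepithelial cells, another cell type with *Fst*, summed to 156, 657 and 114 CPM in the mural gate with none at 0. They include the contractile gene *Cnn1*, which mural cells can share, so the sum does not measure myoepithelial RNA alone. The keratins among them were highest in *Mgp*-KO, with *Krt5* at 1.44, 149 and 9.14 CPM. *Krt14* was 2.39, 110 and 8.66 CPM, and *Krt17* 2.23, 67.2 and 30.3 CPM. Leaving out cells with a *Krt5*, *Krt14* or *Krt17* UMI gave 58.8, 297 and 291 CPM of *Fst*. Free RNA held 94.8, 199 and 149 CPM of *Fst*, more than the wild-type mural gate, and endothelial cells, which should lack the gene, 12.8, 2.46 and 8.98 CPM. Mural cells with a *Myh11* UMI lay below free RNA in each library, and the libraries stood in the same order in both. In *Mgp*-KO, 1 cell held 42 of the 220 mural UMIs.

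**Figure D3:**
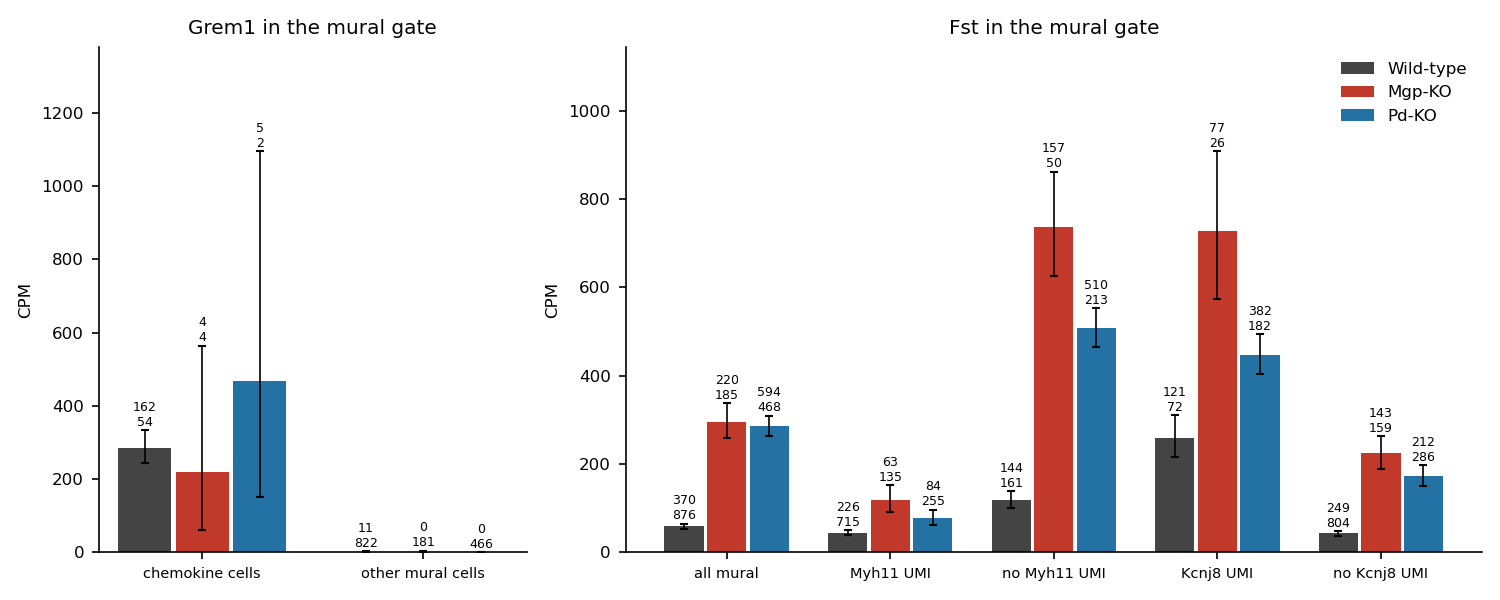
CPM (vertical axes, from 0) of *Grem1* in mural cells with and without the chemokine program and of *Fst* in the mural gate and 4 parts of it, in the 3 libraries. Bars carry 95% Poisson intervals, and the numbers above them are UMIs of the gene and cells. *Grem1* lies in the chemokine cells of each library, and *Fst* is higher in both knockouts than in wild-type in every part.

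*Grem1*, the gremlin of smooth muscle and stromal niches that binds BMP2 and BMP4, was lower in both knockouts. The gene lies on chromosome 2 (GRCm38, chr2:113746164-113758646, minus strand). Over all cells it had 329, 43 and 8 UMIs. In mural cells the level was 27.6 CPM (23.6 to 32.0) in wild-type, 5.38 CPM (1.47 to 13.8) in *Mgp*-KO and 2.41 CPM (0.78 to 5.62) in Pd-KO, from 173, 4 and 5 UMIs. The log2 ratios were -2.19 (-4.25 to -0.98) and -3.39 (-5.16 to -2.27), but gating on all UMIs instead of 2000 turned the *Mgp*-KO ratio to 0.54. Between the knockouts it was 1.19 (-1.17 to 3.38) from 4 and 5 UMIs, and its interval included 0. It reached the minimum there only through wild-type UMIs, so that call is set aside, and no other member was called between the knockouts in mural cells, where 4.47% of genes were higher and 9.29% lower.

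In wild-type the transcript came from few cells. Mural cells with a *Grem1* UMI numbered 44. Among the genes that most set them apart from other mural cells were chemokines of lymphoid stroma. These were *Ccl21a* (19573 against 456 CPM in other mural cells), *Ccl19* (11518 against 629 CPM) and *Cxcl13* (1406 against 42.0 CPM). *Myh11* (354 against 2249 CPM) and *Acta2* (1634 against 10386 CPM) were lower. *Pdgfra* (137 against 22.7 CPM) and *Dcn* (2663 against 666 CPM) were higher, so their mural identity is not settled by these markers. Cells were therefore split, after these values had been seen, by at least 10 of 2000 thinned UMIs in these 3 chemokines. There were 54, 4 and 2 such mural cells, or 6.16%, 2.16% and 0.43% of the gate. They held 162 of 173, all 4 and all 5 mural *Grem1* UMIs, at 286 CPM (244 to 334), 221 CPM (60.1 to 565) and 469 CPM (152 to 1095). The other mural cells held 1.93 CPM in wild-type and no UMI in either knockout. The Pd-KO UMIs all lay in 1 cell, and 3 of the 4 in *Mgp*-KO did. Among chemokine cells of the gate, the intervals of the 3 libraries overlapped, though only 36, 2 and 1 of these cells held a *Grem1* UMI. The gate held fewer such cells in both knockouts. Outside the mural gate, chemokine cells numbered 71, 208 and 5, with 82, 8 and 0 *Grem1* UMIs (91.2 and 7.17 CPM in wild-type and *Mgp*-KO). Chemokine cells as a whole were thus not fewer in *Mgp*-KO, where those outside the gate held less *Grem1*. Fewer cells captured, fewer cells in the tissue and the placement of the gate cannot be told apart here.

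The APC gate held 76, 31 and 3 *Grem1* UMIs (0.68, 0.40 and 0.05 CPM), of which 53, 29 and 3 lay outside chemokine cells. In wild-type, 21 chemokine cells of that gate held 23 of its UMIs, at 84.0 CPM (53.2 to 126). In *Mgp*-KO, 186 chemokine cells of the gate held 2 UMIs, at 2.00 CPM (0.24 to 7.22), and Pd-KO had no such cell. Chemokine cells in the APC gate of *Mgp*-KO were thus many and nearly without *Grem1*, unlike those of wild-type. The deeper wild-type library (median 6663 mural UMIs per cell against 3191 and 4086) bears on any count of positive cells, and its part in the result was not tested.

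*Fstl1* was found in all 9 plotted gates of each library. It stood at 1818, 1955 and 3260 CPM in APCs, with ratios of 0.10 (0.09 to 0.11) in *Mgp*-KO and 0.84 (0.83 to 0.85) in Pd-KO. Interstitial progenitors held 3209, 2744 and 4156 CPM and preadipocytes 1210, 1136 and 1589 CPM. The Pd-KO ratio was 0.37 within the former state, 0.39 within the latter and 0.43 with wild-type state weights. In *Mgp*-KO the ratio within interstitial progenitors was -0.23 (-0.24 to -0.21), so the direction differed between the knockouts. Free RNA carried 611, 1379 and 2487 CPM of *Fstl1*, more than the mural gate (441, 360 and 520 CPM) in each library.

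**Figure D4:**
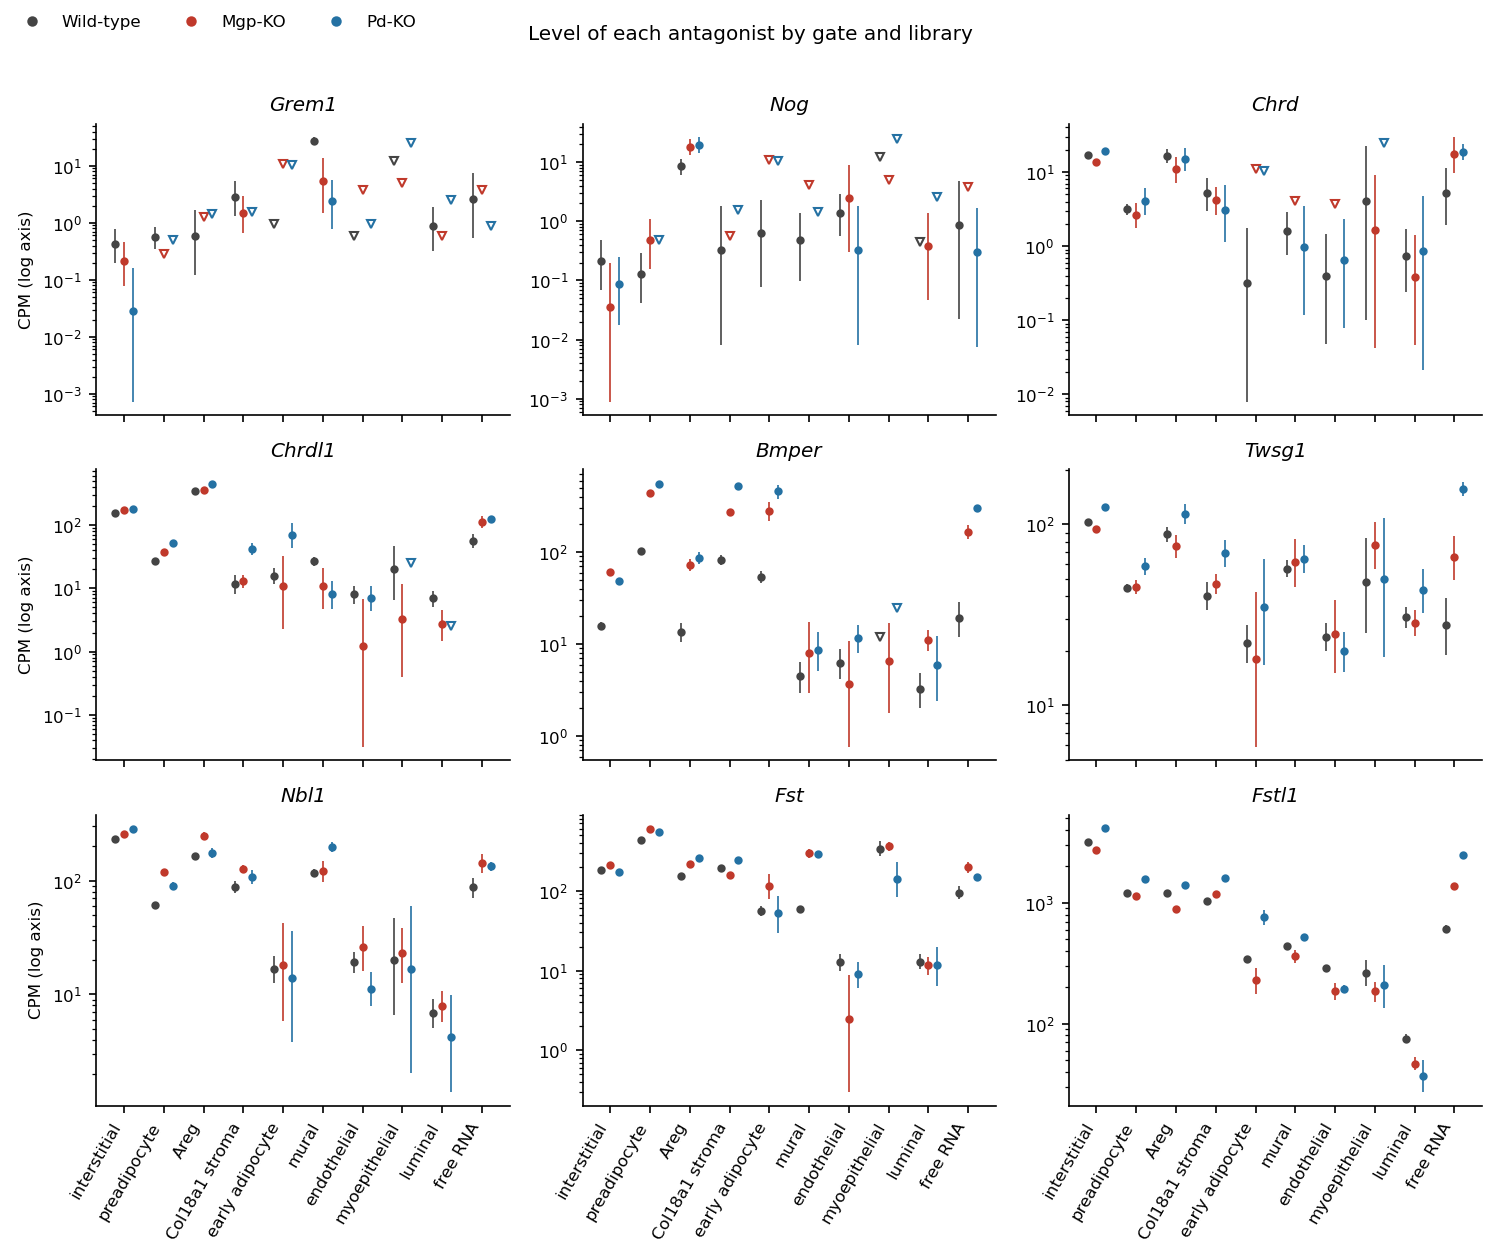
CPM (vertical log axes) of the 9 antagonists in 9 gates and in free RNA, coloured by library. Points carry 95% Poisson intervals, and open triangles mark the level of 3 UMIs where no UMI was counted. *Chrdl1* and *Nog* peak in Aregs, *Bmper* and *Fst* in preadipocytes among APC states, and *Nbl1*, *Fstl1* and *Twsg1* in interstitial progenitors. *Grem1* peaks in the mural gate of wild-type, where it lies mainly in chemokine cells. Neurons, gated in wild-type only, are not drawn.

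Preadipocytes were set against interstitial progenitors and Aregs in each library. Of 7 members with at least 20 UMIs in each library over preadipocytes and interstitial progenitors, *Bmper* and *Fst* were higher in preadipocytes in all 3 libraries, and *Chrd*, *Chrdl1*, *Twsg1*, *Nbl1* and *Fstl1* in interstitial progenitors in all 3, with every interval away from 0. Against preadipocytes, Aregs were higher in *Nog*, *Chrd*, *Chrdl1*, *Twsg1* and *Nbl1* and lower in *Bmper*, *Fst* and *Fstl1* in all 3, with every interval away from 0 but that of *Fstl1* in wild-type. Aregs against interstitial progenitors were less uniform, at -0.22, 0.25 and 0.84 for *Bmper* and -0.22, 0.06 and 0.62 for *Fst*, and so was Col18a1 stroma for *Fst* (0.11, -0.41 and 0.52). The *Bmper* levels of Aregs and interstitial progenitors lay below free RNA in each library. *Grem1* was too rare in APCs for such a comparison.

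Over 34 points, each a gate of at least 50 cells in 1 library, the genes most alike to each member in log2 level were found by Pearson's r, as a description of gates that share libraries and depth. *Chrdl1* was most like *Glt8d2* (0.96), *Bmper* like *Adam12* (0.94), *Fst* like *Gas1* (0.91), *Nbl1* like *B3galnt1* (0.91), *Twsg1* like *Pi15* (0.93), *Fstl1* like *Rian* (0.95) and *Grem1* like *Serpina10* (0.97). Between members the highest r was that of *Nbl1* with *Fstl1*, at 0.88, while *Grem1* had values from -0.27 to 0.12 with the rest.

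Within the wild-type library, which avoids any difference of genotype or software, cells with an *Mgp* UMI among their 2000 thinned UMIs were set against cells of the same state without. Such a UMI need not mark an expressing cell, since wild-type free RNA held 359 CPM of *Mgp*. Preadipocytes held 157 CPM and interstitial progenitors 65.9 CPM, and how much free RNA added to these was not tested. A UMI was found in 11.7% of preadipocytes, 10.0% of interstitial progenitors and 85.5% of Aregs, beside 5.42% of luminal epithelial cells, so the values are a description. In preadipocytes (296 cells with and 2233 without), *Chrdl1* was 63.6 against 22.3 CPM, a log2 ratio of 1.51 (1.30 to 1.71). *Fst* was lower in these cells, at 321 against 449 CPM (-0.48, -0.56 to -0.40), and so was *Bmper*, at 79.4 against 106 CPM (-0.42, -0.59 to -0.26). In Aregs (417 with and 71 without), *Fst* was again lower, at 139 against 230 CPM (-0.73, -0.96 to -0.49), while *Nbl1* was higher, at 176 against 108 CPM (0.69, 0.39 to 1.02). In interstitial progenitors *Fst* went the other way, at 227 against 175 CPM (0.38, 0.24 to 0.51). The medians of all genes tested in these splits lay between -0.03 and 0.03, and cells within a state can differ in more than *Mgp*.

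Among the other genes of the pathway, 9 of 11 in the list of BMP ligands were tested in APCs. The list also holds *Bmp1*, which encodes a protease and no ligand. Of the 9 tested, 4 were higher in *Mgp*-KO (beside 19.3% of all genes) and 5 in Pd-KO (beside 22.4%) with none lower. The median log2 ratio was 0.65 and 1.83 beside 0.16 and 0.21 over all genes. *Bmp6*, a ligand that also governs iron handling, was 3.75, 12.8 and 36.3 CPM. *Bmp7* was 15.1, 33.4 and 53.6 CPM. With the span of genes taken off, 2 and 4 ligands were still called higher, beside 10.5% and 11.9% of all genes, and *Bmp6* and *Bmp7* stood at 1.95 and 1.10 in Pd-KO. *Bmp4*, a ligand of most of the antagonists described here, was looked up after the other values had been seen, and stood at 15.1, 15.0 and 17.0 CPM. Within preadipocytes 0 of 5 ligands tested were called in either knockout, at medians of 0.08 and 0.09, beside 16.5% and 19% of genes called higher. In endothelial cells 2 and 3 of 5 were lower and 1 was higher in Pd-KO. The 10th percentile of all genes tested there lay at -0.54 and -0.45, and the 90th at 0.89 and 1.26.

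Receptors were all tested in APCs, and 2 and 4 of 10 were higher beside the same 19.3% and 22.4% of genes. *Acvr1* (the type I receptor ALK2), at 18.1, 40.7 and 55.4 CPM, was among them in both knockouts. *Bmpr1a* (ALK3), at 56.6, 97.6 and 115 CPM, was among them in Pd-KO only. None of the receptors was called higher after span had been taken off. Of 9 target genes, 0 and 1 were higher and 1 and 1 lower, where 3.74% and 6.24% of all genes were lower. *Id1*, a direct SMAD1/5 target, was 50.9, 43.8 and 9.60 CPM, a ratio of -0.22 (-0.28 to -0.15) in *Mgp*-KO and -2.40 (-2.53 to -2.29) in Pd-KO. Of 15 other extracellular antagonists and modulators 9 were tested, of which 3 were higher in each knockout and 1 and 2 lower. After span had been taken off, none of them was called higher in either knockout, and 1 and 2 were called lower. *Crim1*, a membrane-bound BMP modulator, was 12.6, 41.5 and 43.7 CPM, and did not pass the fold once span had been taken off. Of 4 activin, inhibin and myostatin genes, listed as ligands of follistatin, 3 were tested, and 1 was higher in *Mgp*-KO and none in Pd-KO.

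In mural cells, 1 of 4 ligands tested was higher in *Mgp*-KO and 2 in Pd-KO, and 1 and 6 of 10 receptors, beside 10.7% and 18.3% of all genes. After span had been taken off, 0 ligands and 0 receptors were called higher in *Mgp*-KO, and 1 of each in Pd-KO. The median log2 ratio of receptors in Pd-KO was then 0.19, against 1.12 as counted. *Bmp6* was 11.3, 33.6 and 34.7 CPM, and the type I receptor *Bmpr1b* (ALK6) was 3.51, 10.8 and 56.8 CPM. Of 7 targets tested, 1 was called higher in each knockout and 1 lower in Pd-KO (beside 3.53% of all genes), at a median of 0.16 and -0.72. The higher one was *Id4*, at 94.4, 190 and 266 CPM (1.01, 0.73 to 1.27, and 1.50, 1.33 to 1.67). With span taken off, 0 targets were called higher in *Mgp*-KO and 1 in Pd-KO. *Inhba*, which encodes an activin subunit that follistatin binds, was the activin gene tested, and it was not called in *Mgp*-KO (-0.73) and lower in Pd-KO (-1.25). Of 15 other antagonists and modulators 3 were tested and none was called against wild-type.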

How the data were processed

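Single-cell 3′ libraries of CD45-depleted stromal vascular cells were made by the authors from pooled inguinal fat, 1 per genotype. The authors deposited unfiltered UMI counts per gene and barcode, and these counts were used as deposited. The submitters' processing notes name Cell Ranger 6.1.1 and GRCm39, while the file headers name Cell Ranger 4 for wild-type and 7.1.0 for both knockouts. Whether introns were counted was not given in the sources used here. Gene spans came from GENCODE on GRCm38, which matched 32235 of 32285 genes (99.8%), so coordinates are those of that build.

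Barcodes with at least 2000 UMIs and at most 10% mitochondrial UMIs were kept. Each cell was thinned to 2000 UMIs, and a cell was gated as an APC with at least 6 of 8 markers or as another type with at least 3 of its markers. Cells with markers of several types (611, 179 and 162) were left out, and no doublet caller was run. States within APCs were gated likewise on 3 to 5 markers. Of all cells, 11.6%, 20.2% and 14.8% lay near the APC cut. UMIs were summed over a gate, with exact Poisson intervals on CPM, exact conditional binomial intervals on ratios and Clopper-Pearson intervals on shares, all at 95%. Ratios were taken with 0.5 counts added, over genes with at least 100 UMIs in a gate over the 3 libraries. With 1 library per genotype no test between genotypes was made. The scripts (Python 3.11.15, numpy 2.4.6, scipy 1.17.1, pandas 2.3.3) were tested on simulated data.

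All 9 members were described. Pathway genes were named where they had at least 20 CPM in 1 library and a log2 ratio of at least 1 or at most -1, up to 4 per list, and likeness was ranked among genes with at least 20 CPM in 1 gate. Members and lists were chosen with earlier results of these data known. Alternatives for the filters, gates, weights, sexes and the span of genes were computed, and 6 parts of the mural gate were chosen once the values were known. The values of 1 pathway gene that met the rule for naming are not reported here.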

Additional observations from a re-analysis of the deposited data

How the results depend on the processing

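No paired analysis was possible because each genotype is 1 library, and for the same reason no replicate could be left out. The count of members called in APCs of *Mgp*-KO over wild-type was 1. It became 2 with each cell weighted equally, 2 with wild-type state weights and 0 with the span median taken off. The count for Pd-KO over wild-type was 2. It became 1 with the gate on all UMIs, 1 with a stricter gate, 1 without cells above the 95th percentile of UMIs, 4 in female cells and 1 in male cells, and 3 with the span median taken off, where *Bmper* was lost and *Chrd* and *Nbl1* gained. The count for *Mgp*-KO over Pd-KO in mural cells was 1. It became 0 at a mitochondrial share of at most 5%, with the gate on all UMIs, with a stricter gate and in female cells, and 2 in male cells and with no minimum on UMIs. Of the mural parts added after the data had been seen, it was 0 with and without a *Myh11* UMI, with and without a *Kcnj8* UMI and without chemokine cells.

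Of 278 alternatives to 19 ratios, 187 stayed within the counting interval, 86 moved outside it and 5 turned a ratio past the fold. *Bmper* in APCs turned to -0.29 in *Mgp*-KO and -0.52 in Pd-KO with the span median taken off. *Grem1* in mural cells turned to 0.54 in *Mgp*-KO over wild-type with the gate on all UMIs and to -1.80 in *Mgp*-KO over Pd-KO at a minimum of 5000 UMIs. *Nog* in Aregs turned to -0.063 in Pd-KO with the gate on all UMIs. *Chrdl1* in APCs, not past the fold, changed sign to -0.41 and -0.19 with the span median taken off. The cause was not tested in any of these. The mural *Fst* ratio ranged from 1.42 to 3.02 in *Mgp*-KO and from 0.78 to 2.70 in Pd-KO, above 0 throughout, and *Grem1* in Pd-KO APCs ranged from -5.44 to -2.55. Depth limits *Nog*, *Grem1* and the mural values of *Chrdl1*, which rest on few UMIs.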

Other observations

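Several antagonists were also measured in gates described above for few members, given in the order wild-type, *Mgp*-KO and Pd-KO with 95% counting intervals. In Col18a1 stroma, *Chrdl1* was 11.6 CPM (8.11 to 16.0), 12.8 CPM (9.97 to 16.3) and 41.9 CPM (33.4 to 52.1), so that Pd-KO stood above both other libraries. *Chrdl1* was called higher there in Pd-KO over wild-type as counted, where the 90th percentile of all genes tested was 1.82. It was not called with the span median taken off. *Twsg1* was 40.2 CPM (33.5 to 47.9), 46.6 CPM (41.0 to 52.8) and 69.1 CPM (57.9 to 81.7) in the same gate, with the same library highest. In early adipocytes, of which the knockout libraries held 21 cells each, *Chrdl1* was 15.7 CPM (11.7 to 20.7), 10.9 CPM (2.24 to 31.7) and 69.9 CPM (42.7 to 108). *Fst* in early adipocytes was 56.2 CPM (48.3 to 65.1), 116 CPM (79.2 to 163) and 52.4 CPM (29.3 to 86.5), with *Mgp*-KO highest, as in free RNA. These early adipocyte levels, and those of *Chrdl1* in Col18a1 stroma, lay below free RNA of the same gene in each library. How much free RNA added to them was not tested. Luminal epithelial cells, in which the antagonists of the stroma were low, held 12.9, 11.6 and 11.9 CPM of *Fst*, and the 3 intervals overlapped.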
